A study of Mus musculus with 18 samples.

Results

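Nupr1 and 6 genes of the integrated stress response, Atf4, Ddit3, Ddit4, Trib3, Chac1 and Asns, were followed in sorted cells of the embryonic mouse heart ventricle. They are 7 of the 19057 genes with a named probe, and were picked by symbol with their levels over these stages already known. Their levels and differences are therefore given as a description, without a test. The genes have 13 probes, of which 10 were above a background floor of 109 intensity units (6.77 on the log2 scale) on at least 3 arrays, and each gene kept at least 1. The cells came from Wt1GFP knock-in embryos, in which green fluorescent protein sits in the Wt1 gene, and the brightest green fraction of enzymatically dispersed ventricles was collected. All groups share this reporter allele, tissue and gate, and the labels set them apart by stage alone. Levels of cell type and handling markers also differed between them, as given below. There were 6 stages, E11.5, E12.5, E13.5, E14.5, E15.5 and E16.5, with 3 arrays each. The labels do not say whether embryos were pooled or arrays came from separate litters, so the spread between arrays may be technical.

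The integrated stress response starts when a kinase phosphorylates the translation factor eIF2. General protein synthesis then slows, while the messenger RNA of Atf4 is translated more, so Atf4 protein can climb without a change in its RNA. The Atf4 protein is a transcription factor that turns on genes of amino acid supply, redox control and, under lasting stress, cell death. Nupr1 encodes a small chromatin-associated stress protein whose gene is a known Atf4 target. Ddit3 encodes the transcription factor CHOP, and Ddit4 encodes REDD1, an inhibitor of the growth kinase complex mTORC1. Trib3 encodes a pseudokinase that restrains Akt and Atf4, Chac1 an enzyme that breaks down glutathione, and Asns the asparagine synthetase.

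Atf4 and its C/EBP partners bind a composite element with the core TGATGNAA. The 250 bases before the RefSeq start site (assembly GRCm38.p6) were read for all 7 genes, and those with a match are printed 5′ to 3′ on the gene's strand, to show where the element lies in genes with unlike courses. The core was sought on both strands. A second form, TGNNGCAAT, was chosen after these sequences had been seen. Capitals mark matches to either. The Nupr1 window is chr7:126625471-126625720 (minus strand), the Chac1 window chr2:119350992-119351241 (plus), the Trib3 window chr2:152344061-152344310 (minus) and the Asns window chr6:7693210-7693459 (minus).
Nupr1: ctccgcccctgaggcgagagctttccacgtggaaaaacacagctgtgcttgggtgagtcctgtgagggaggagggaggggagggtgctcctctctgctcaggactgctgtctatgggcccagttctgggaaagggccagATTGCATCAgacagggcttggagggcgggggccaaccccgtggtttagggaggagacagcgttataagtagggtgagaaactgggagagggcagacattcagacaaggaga
Chac1: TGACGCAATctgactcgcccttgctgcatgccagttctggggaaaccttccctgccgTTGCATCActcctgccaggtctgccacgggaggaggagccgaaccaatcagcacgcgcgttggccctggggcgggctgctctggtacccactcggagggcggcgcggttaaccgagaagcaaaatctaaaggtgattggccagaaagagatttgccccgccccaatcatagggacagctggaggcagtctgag
Trib3: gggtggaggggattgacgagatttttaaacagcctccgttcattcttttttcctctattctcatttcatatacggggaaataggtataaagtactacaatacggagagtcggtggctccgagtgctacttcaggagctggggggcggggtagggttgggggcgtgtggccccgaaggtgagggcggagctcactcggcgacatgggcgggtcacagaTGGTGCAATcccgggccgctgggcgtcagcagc
Asns: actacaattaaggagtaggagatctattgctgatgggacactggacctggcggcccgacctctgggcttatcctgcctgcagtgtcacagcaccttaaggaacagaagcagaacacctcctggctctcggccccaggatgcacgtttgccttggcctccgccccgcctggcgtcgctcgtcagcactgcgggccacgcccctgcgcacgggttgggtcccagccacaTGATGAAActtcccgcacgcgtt
The core was found in 3 of the 7 windows, those of Nupr1, Chac1 and Asns, and in 3.45% of all 32851 promoter windows of that length. The 7 genes were picked as genes of the Atf4 pathway, so nothing is read from this count. In Nupr1 the core lay on the opposite strand, 110 to 103 bases before the start, and in Chac1 on the opposite strand 193 to 186 bases before it. In Asns it lay on the gene's own strand, 23 to 16 bases before the start. The second form was found in Nupr1, Trib3 and Chac1 and in 1.79% of all windows. It overlapped a match to the core in Nupr1 only. Since it was chosen with these windows in view, nothing is read from its count. The ER stress element bound by Atf6 with NF-Y was in 0 of the 7 windows and in 0.113% of all. Ddit3, Ddit4 and Atf4 had no match, which says only that these letters are not in this window.

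Nupr1 had the widest range of stage means of the 7 genes. At E11.5 its log2 intensities were 6.75, 6.80 and 6.78 on replicates 1, 2 and 3, and 2 of the 3 arrays were above the floor. At E12.5 they were 6.95, 7.31 and 7.41, and at E13.5 they were 7.66, 7.98 and 7.75. The gene thus went from the background level to a low but clear signal over the first days, and the arrays of these 3 stages did not overlap. At E14.5 the values were 7.69, 7.56 and 7.92, which overlapped those of E13.5. At E15.5 they were 9.15, 10.40 and 9.45, and at E16.5 they were 10.14, 10.80 and 11.09. Every array of this last pair of stages stood above every earlier array, and the E15.5 and E16.5 arrays overlapped only through E15.5 replicate 2.

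**Figure D1:**
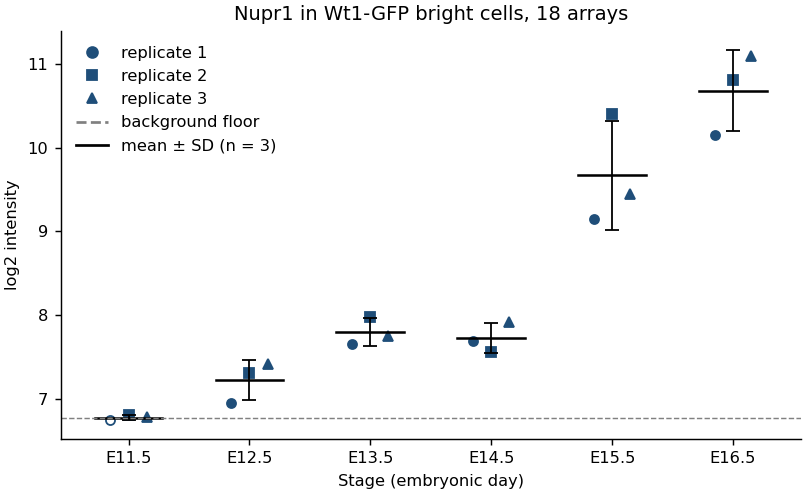
Log2 intensity of Nupr1 on each of 18 arrays by stage (symbols give the replicate, open symbols lie under the background floor drawn as a dashed line, bars give the mean ± SD, n = 3). The stage means step from 7.72 at E14.5 to 9.67 at E15.5, and all E15.5 and E16.5 arrays lie above all earlier ones.

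On a linear scale Nupr1 went from 107 to 112 intensity units at E11.5 to 1132 to 2187 at E16.5. The mean log2 intensity was 6.78 ± 0.03 (SD, n = 3) at E11.5 and 10.68 ± 0.49 at E16.5, a difference of 3.90 ± 0.27 (SE), or 14.97-fold. This was the difference ranked 19th upward among the 10841 genes measured above the floor. Dark probes pile up near 99.2 intensity units, a base level that every value carries, so that the fold understates the change in RNA. With normexp background correction at an offset of 16 or 50 the log2 difference was 5.42 or 4.50.

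The widest step was that from E14.5 to E15.5. It measured 1.94 ± 0.27 (SE) on the log2 scale, a 3.85-fold difference, and was the largest upward step of all 10841 genes between those stages. Since Nupr1 at E11.5 lies at the floor, the share of this step in the whole difference depends on the scale. It was 49.8% as deposited, 48.0% with normexp at offset 50 and 44.5% at offset 16. The step to E16.5 added 1.01 ± 0.27. The steps from E11.5 to E12.5 and from E12.5 to E13.5 were 0.45 and 0.57, and that from E13.5 to E14.5 was -0.07. In order of mean level the stages ran E16.5, E15.5, E13.5, E14.5, E12.5 and E11.5. In that order E16.5 and E15.5 overlapped, as did E13.5 and E14.5, and the other neighbours did not. In bulk RNA of sorted cells, more Nupr1 per cell and more cells that carry it cannot be told apart. Mean levels of cardiomyocyte markers, described below, also differed between E14.5 and E15.5. They were 10.30 to 10.49 at E14.5 and 10.74, 8.70 and 8.99 on replicates 1, 2 and 3 of E15.5. Their part in the Nupr1 step was not tested.

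Atf4, the transcription factor gene at the centre of the pathway, differed less than Nupr1 over the course. Its log2 intensities were 10.52, 9.90 and 10.38 at E11.5, 10.53, 9.82 and 10.07 at E12.5, and 10.85, 10.35 and 10.09 at E13.5. They were 10.95, 10.56 and 10.88 at E14.5, 10.95, 11.05 and 10.98 at E15.5, and 11.16, 10.96 and 10.81 at E16.5. All E15.5 and E16.5 arrays were above all E11.5 and E12.5 arrays, but no 2 stages next to each other in the order of means were separated. The mean was 0.71 ± 0.21 (SE) higher at E16.5 than at E11.5, a 1.63-fold difference. A second Atf4 probe stood 0.57 higher at E16.5, and on it E13.5 replicate 1 was at 7.38 against 8.46 and 8.17 on the other arrays of that stage.

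Ddit3, the CHOP gene, varied widely within stages. At E11.5 its log2 intensities were 7.79, 7.90 and 8.42, and at E12.5 they were 7.93, 7.68 and 7.56. At E13.5 they were 7.55, 9.82 and 8.68, so that the lowest and the highest Ddit3 values of the whole course came from 1 stage. At E14.5 the arrays were close together at 8.44, 8.53 and 8.62. At E15.5 they were 8.21, 9.53 and 8.81 and at E16.5 9.06, 9.46 and 8.47. The difference between E16.5 and E11.5 was 0.96 ± 0.44 (SE), or 1.95-fold, and the 2 groups were kept apart only by the gap between 8.42 and 8.47. The second Ddit3 probe differed by 0.77 between these stages and also had E13.5 replicate 2 highest, at 8.55 against 7.43 and 7.60.

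Ddit4, the REDD1 gene, stood at 7.48, 7.76 and 7.22 at E11.5 and at 7.51, 7.62 and 7.57 at E12.5. It was at 7.62, 8.21 and 8.02 at E13.5 and at 7.71, 7.74 and 7.74 at E14.5. The E15.5 values were 8.28, 8.49 and 8.10, and those of E16.5 were 8.49, 8.50 and 7.98. Like Nupr1, Ddit4 was higher at E15.5 than at E14.5, by 0.56 ± 0.17 (SE), and those arrays did not overlap, although E13.5 and E15.5 did. The E16.5 mean was 0.83 ± 0.17 above that of E11.5, a 1.78-fold difference.

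Trib3 and Chac1 were dim throughout. Trib3 read 6.83, 6.70 and 6.65 at E11.5, where 1 of 3 arrays was above the floor, and 6.88, 6.88 and 6.82 at E12.5. It read 7.05, 6.97 and 6.84 at E13.5, 6.97, 7.03 and 6.99 at E14.5, and 6.94, 7.35 and 7.14 at E15.5. At E16.5 it read 7.38, 7.51 and 7.19, all above every array up to E14.5. The Trib3 stage means followed the days without exception, from 6.73 ± 0.09 (SD, n = 3) to 7.36 ± 0.16, but each stage overlapped the next. The other 2 Trib3 probes were above the floor on 1 and 0 of the 18 arrays.

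Chac1 read 6.61, 6.71 and 6.72 at E11.5, all under the floor, and 6.75, 6.79 and 6.79 at E12.5. It read 6.84, 7.05 and 6.85 at E13.5, 6.90, 6.98 and 7.01 at E14.5, and 6.77, 7.62 and 6.96 at E15.5. At E16.5 it read 7.43, 7.67 and 7.54. Its stage means too followed the days, and at E15.5 replicate 2 alone reached the E16.5 range. With the floor in place of E11.5, Chac1 at E16.5 was at least 1.71-fold higher, and the measured log2 difference was 0.87 ± 0.15 (SE). With normexp at an offset of 16 the differences of Chac1, Trib3 and Ddit4 were 1.95, 1.47 and 1.22, and at an offset of 50 those of Chac1 and Trib3 were 1.22 and 0.90.

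Asns, a classical Atf4 target, went another way. Its log2 intensities were 8.78, 8.61 and 8.55 at E11.5, 9.32, 8.82 and 8.85 at E12.5, and 9.47, 8.59 and 8.47 at E13.5. They were 9.19, 9.17 and 9.07 at E14.5, 8.96, 8.72 and 8.75 at E15.5, and 8.91, 8.93 and 8.41 at E16.5. The Asns mean was highest at E14.5 and was 0.33 ± 0.22 (SE) lower at E15.5, between stages whose arrays did not overlap. Between E16.5 and E11.5 it differed by 0.11 ± 0.22, and those arrays overlapped. A second Asns probe differed by 0.04 over this span and had its highest mean, 7.83 ± 0.18 (SD, n = 3), at E13.5, and the last probe was under the floor on all 18 arrays.

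**Figure D2:**
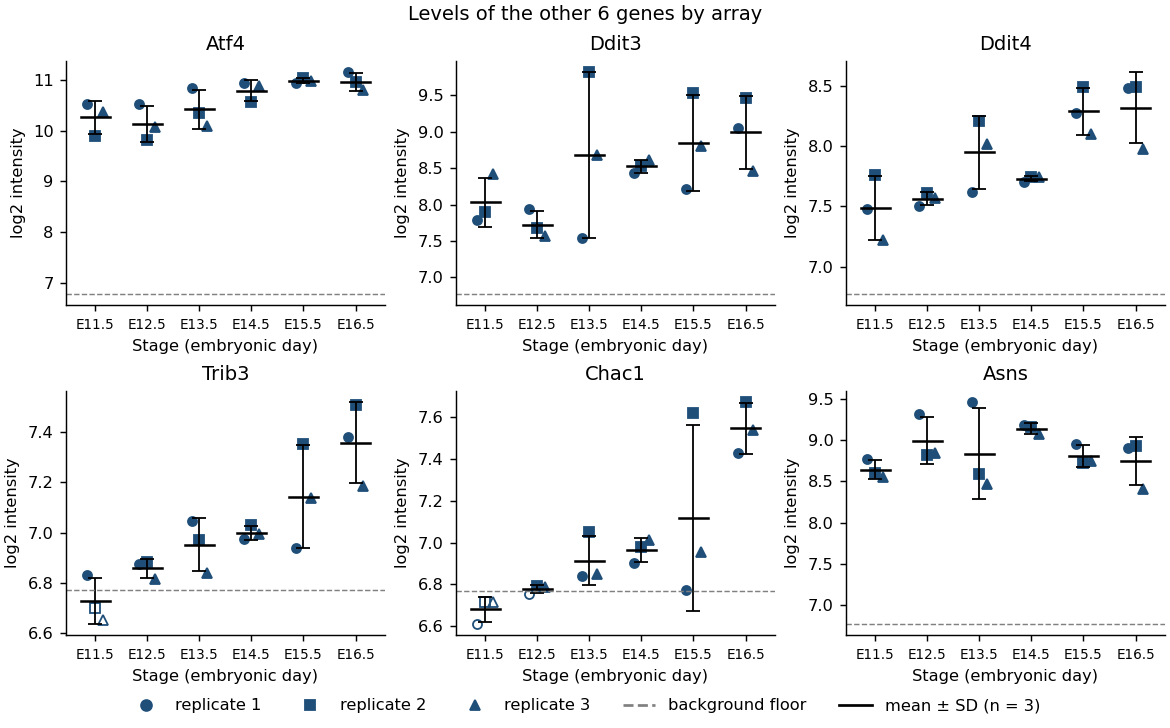
Log2 intensity of Atf4, Ddit3, Ddit4, Trib3, Chac1 and Asns on each of 18 arrays by stage, each gene on its brightest probe and its own axis (symbols give the replicate, open symbols lie under the dashed background floor, bars give the mean ± SD, n = 3). The arrays of E16.5 lie above those of E11.5 for all but Asns, and Ddit3 spans 7.55 to 9.82 at E13.5 alone.

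In all, the E16.5 arrays stood above the E11.5 arrays for 6 of the 7 genes, and for Asns they overlapped. Of all genes 21.3% were higher and 28.2% lower without overlap in the same comparison, and since the genes were chosen with these values in view, nothing is read from the count. The median log2 difference was 0.83 for the 7 genes and -0.03 for all genes. Between neighbouring stages the count of the 7 genes higher without overlap was 3 at E12.5 (16.4% of all genes), 3 at E13.5 (9.87%), 0 at E14.5 (11.8%) and 2 at E15.5 (10.8%), and the last step, to E16.5, had 0 (4.34%). Only Asns, at E15.5, was lower without overlap, against 13.2%, 10.1%, 12.7%, 11.1% and 7.61% of all genes over the 5 steps. Those at E12.5 were Nupr1, Chac1 and Asns, and those at E13.5 Nupr1, Chac1 and Ddit4. The 2 genes at E15.5 were Nupr1 and Ddit4. Neighbouring steps share the arrays of a stage.

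Within a stage several of the genes leaned the same way on an array. On E15.5 replicate 2 all but Asns were at their highest of the 3 arrays, which was 6 of 7 genes against 34.6% of all genes. There Nupr1 stood 0.73, Ddit3 0.68 and Chac1 0.50 above the stage mean on the log2 scale. On E15.5 replicate 1 the same genes stood at -0.52, -0.64 and -0.34. At E13.5 Ddit3 stood at 1.14 on replicate 2 and at -1.14 on replicate 1, where Asns stood at 0.63. At E16.5, 5 of the 7 genes were highest on replicate 2 (32.4% of all genes), but Nupr1 was highest on replicate 3.

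**Figure D3:**
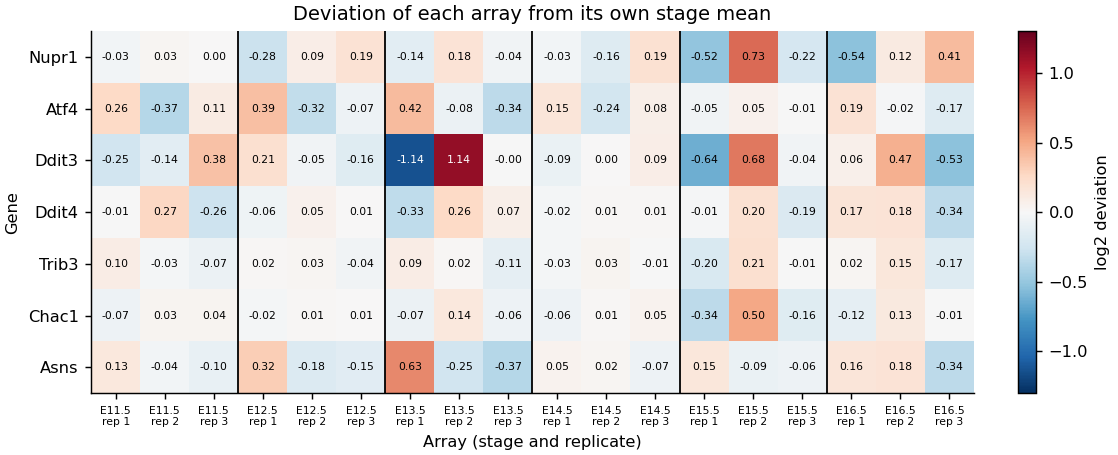
Deviation of each array from the mean of its own stage, on the log2 scale, for the 7 genes (rows) and 18 arrays (columns, ordered by stage and replicate), with the value written in each cell. On E15.5 replicate 2 Nupr1, Ddit3 and Chac1 stand 0.73, 0.68 and 0.50 above the stage mean, and on E13.5 replicate 1 Ddit3 stands at -1.14 while Asns stands at 0.63.

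Markers of other cells and of handling moved over the same arrays. Here rose and fell mean a limma call at an adjusted p under 0.05 between E16.5 and E11.5. Of all genes 15.9% rose and 18.7% fell by that rule. Of 13 endothelial markers 12 rose between E11.5 and E16.5, and the list's mean log2 level went from 7.34 to 7.43 at E11.5, where Pecam1, Cdh5 and Tie1 were under the floor on all arrays, to 10.61 to 10.89 at E16.5. Of 9 fibroblast markers 8 rose (8.88 to 9.07 against 10.06 to 10.25, with Dpt under the floor at E11.5). Of 8 erythroid markers 5 rose and 1 fell (6.76 to 7.73 against 9.09 to 9.42), and of 3 measured leukocyte markers 2 rose (6.71 to 6.78 against 7.52 to 7.73). At E11.5 Alas2, Slc4a1 and Laptm5 of these lists were under the floor, as were Hbb-bh1 and Hba-x at E16.5. Of 15 cardiomyocyte markers 4 rose and 1 fell, with list means of 8.46 to 8.81 at E11.5 and 8.76 to 10.56 at E16.5. Of 14 immediate early genes, which dissociation can induce, 8 rose (8.54 to 9.20 against 9.82 to 9.98), with Hspa1b and Myc under the floor at E11.5 and Ier2 and Myc at E16.5. Of 12 epicardial and mesothelial markers 2 rose and 5 fell, all were above the floor at both stages, and the list mean dipped from 9.18 to 9.37 at E11.5 to 8.05 to 8.16 at E14.5 before it stood at 8.87 to 9.20 at E16.5.

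At E15.5, where Nupr1 was lowest on replicate 1 and highest on replicate 2, the epicardial and mesothelial mean was 8.26, 8.73 and 8.46 on replicates 1, 2 and 3. The endothelial mean was 9.86, 10.81 and 10.68 on the same arrays, and that of immediate early genes 9.09, 9.91 and 9.74. At E16.5, with Nupr1 at 10.14, 10.80 and 11.09, the epicardial and mesothelial mean was 8.87, 9.05 and 9.20, in the same order. The endothelial mean, at 10.61, 10.89 and 10.83, was highest on replicate 2. That of immediate early genes, at 9.97, 9.98 and 9.82, was lowest on replicate 3, where Nupr1 was highest. The order of the epicardial and mesothelial mean was not particular to that list. The leukocyte mean also ran in the order of Nupr1 at both E15.5 and E16.5. The cardiomyocyte mean ran in the reverse order at both stages. With 3 arrays per stage, these orders cannot tell the lists apart. Cardiomyocyte markers averaged 10.74 and 10.56 on replicate 1 of E15.5 and of E16.5. The remaining arrays of both stages lay between 8.70 and 9.01, and those of E14.5 between 10.30 and 10.49. With both arrays left aside the Nupr1 difference between E16.5 and E11.5 was 4.17. E15.5 replicate 1 has no part in that difference, and E16.5 replicate 1 was the lowest Nupr1 array of its stage. The value therefore says nothing on the part of cardiomyocyte markers. At E13.5, where Ddit3 read 7.55, 9.82 and 8.68, the mean of immediate early genes was 8.81, 9.55 and 9.61. The part of any of the marker lists in the levels of the 7 genes was not tested.

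**Figure D4:**
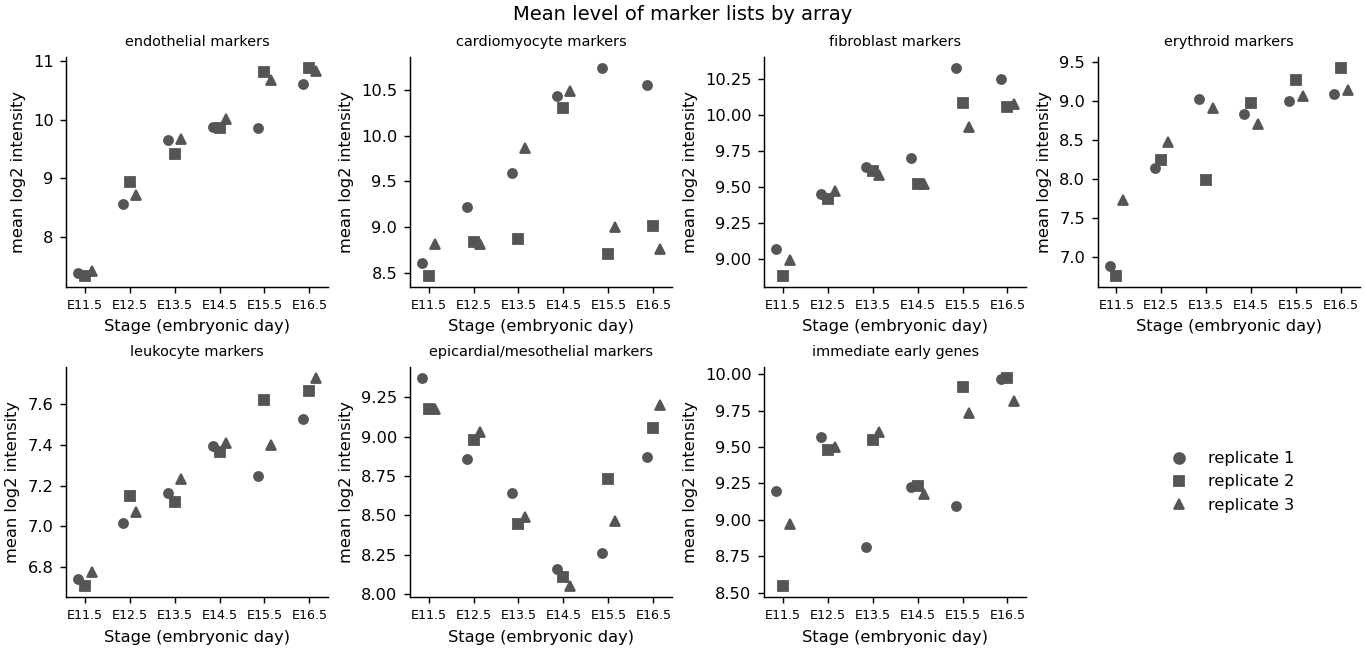
Mean log2 intensity of 7 marker lists on each of 18 arrays by stage (symbols give the replicate, each list on its own axis). Endothelial markers climb from 7.34 to 7.43 at E11.5 to 10.61 to 10.89 at E16.5, and epicardial and mesothelial markers dip to 8.05 to 8.16 at E14.5. Cardiomyocyte markers are highest on all E14.5 arrays (10.30 to 10.49) and on replicate 1 of E15.5 and of E16.5.

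Genes with a course most like that of Nupr1 were sought among 848 others whose stage means spanned at least 1 on the log2 scale. The 8 with the highest Pearson correlation over the 18 arrays were Tmem119, Slc23a3, Htra3, Klf2, Lims2, Samd9l, Dnajc6 and Emp2, with r from 0.976 to 0.990. The arrays share stages, so this describes a shared timing. Klf2, a flow-responsive transcription factor gene of endothelium, had a mean of 8.53 at E14.5, while E15.5 stood at 10.07 and E16.5 at 10.74. Tmem119, with the highest r, differed by 0.91 between E14.5 and E15.5, and Emp2, a tetraspan membrane protein gene, by 0.64. Over the deviations from stage means alone r lay between 0.692, for Samd9l, and 0.92, for Slc23a3. The 8 genes were picked on the same arrays with these deviations included, so a high r here is partly built in. The correlation with Nupr1 over 18 arrays was 0.90 for Chac1, 0.88 for Trib3, 0.83 for Ddit4, 0.67 for Atf4, 0.60 for Ddit3 and -0.21 for Asns. Of all genes 2.56% correlated with Nupr1 more closely than Chac1 did, and 14.2% more closely than Ddit3.

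The rest of the pathway did not go one way between E11.5 and E16.5. Of 123 genes in 7 lists, 95 were measured above the floor, and limma called 16 higher and 23 lower at E16.5 at an adjusted p under 0.05. That was 16.8% and 24.2% of them, against 15.9% and 18.7% of all genes. Their median log2 difference was -0.01 and that of all genes -0.03. With cyclic loess normalization 19 rose and 15 fell, and for all genes the higher share of calls went from 46.0% to 56.9%. Of the called genes 23 have other probes above the floor, and 15 of these have a companion whose difference had under 50% of the size given here. For Gars, Tsc2 and Sel1l a companion had the opposite sign.

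Upstream, 12 genes of the eIF2 kinases, eIF2, its exchange factor eIF2B and the phosphatase were measured. Of these 1 rose and 2 fell (median -0.05), beside 15.9% higher and 18.7% lower of all genes. Ppp1r15a, the GADD34 gene, whose protein guides the phosphatase that resets eIF2, rose from a mean log2 intensity of 7.96 ± 0.21 to 9.70 ± 0.17 (SD, n = 3; adjusted p = 9.6e-05). Eif2b1, an eIF2B subunit gene, fell by 0.27 and the phosphatase catalytic subunit gene Ppp1ca by 0.25. With cyclic loess neither was called (adjusted p = 0.064 for Eif2b1, and a difference of -0.15 with adjusted p = 0.11 for Ppp1ca). Ppp1ca was also not called with normexp at offset 16 (adjusted p = 0.058) or when E11.5 replicate 3 (0.050) or E16.5 replicate 1 (0.057) was left out. Neither of the kinase genes Eif2ak1 (-0.04 ± 0.10, SE) and Eif2ak2 (0.12 ± 0.14) was called, and Eif2ak3 and Eif2ak4 were not above the floor on 3 arrays.

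Among 11 stress transcription factor genes 4 rose and 2 fell (median 0.24), beside 15.9% higher and 18.7% lower of all genes. Atf3, which is induced downstream of Atf4, rose by 2.18 ± 0.35 (SE; adjusted p = 2.1e-04), Jun by 1.06 ± 0.21 (adjusted p = 0.0012) and Cebpb by 0.92 ± 0.21 (adjusted p = 0.0030). Atf5, an Atf4-like factor named here after its values were seen, rose by 0.70 ± 0.07 (adjusted p = 1.3e-06). Its step between E14.5 and E15.5 was also called (0.39, adjusted p = 0.011), the step at which Nupr1 differed most. Cebpd fell by 0.42 and the coactivator gene Ep300 by 0.41. Cebpg, a dimer partner of Atf4, differed by 0.24 ± 0.16 and was not called (adjusted p = 0.28), but was with array weights (0.32, adjusted p = 0.011). Jund, with the replicate number as a block, was called higher (0.26, adjusted p = 0.028, against 0.11 without the block). Jund was also called with cyclic loess (0.039), array weights (0.015) and only the 2 stages fitted (0.022). The same held without E15.5 replicate 1 (0.042) and without replicate 1 of both E15.5 and E16.5 (0.043).

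Amino acid supply, to which Asns belongs, was covered by 3 lists. Of 8 genes of serine, glycine, one-carbon, proline and cysteine synthesis 4 fell and 1 rose (median -0.27), beside 18.7% lower and 15.9% higher of all genes. With cyclic loess 3 fell and 1 rose. Gpt2, the mitochondrial alanine aminotransferase gene, fell from 9.12 ± 0.11 to 7.31 ± 0.10 (SD, n = 3; adjusted p = 4.4e-08). The serine synthesis genes Psat1 and Phgdh fell by 0.91 and 0.65, while Aldh1l2, a mitochondrial folate enzyme gene that 2 of the 3 E11.5 arrays detected, rose by 0.75 ± 0.06 (SE; adjusted p = 3.3e-07). On its other probes Aldh1l2 differed by 0.14 and 0.24. The Psat1 and Gpt2 falls were already called at E12.5 (-0.85 and -0.58, adjusted p = 0.0049 and 0.0085).

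Of 9 amino acid transporter genes 1 rose and 2 fell (median 0.03), beside 15.9% higher and 18.7% lower of all genes. Slc6a9, a glycine transporter gene, rose by 0.27, Slc7a6 fell by 0.41 and Slc38a1 by 0.27. Slc6a9 was no longer called when replicate 1 or 3 of E11.5 (adjusted p = 0.076 and 0.069) or replicate 2 or 3 of E16.5 (0.052 and 0.084) was left out. For Slc38a1 the same held for replicate 1 or 2 of E11.5 (0.10 and 0.071), replicate 3 of E16.5 (0.11) and a fit of the 2 stages alone (0.059). Slc7a11, the cystine carrier gene, exceeded the floor once at E11.5 (1 of 3 arrays) and on 0 arrays at E16.5.

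Of 18 cytosolic tRNA synthetase genes 9 fell and 2 rose (median -0.15), beside 18.7% lower and 15.9% higher of all genes. With cyclic loess 5 fell and 2 rose (median -0.08). Qars, Vars and Eprs fell by 0.67, 0.59 and 0.47 (adjusted p = 8.2e-05, 0.0015 and 0.0015). Companion probes of Eprs differed by -0.05 and -0.08. Cars rose by 0.92 ± 0.30 (SE; adjusted p = 0.029) and Gars by 0.31 ± 0.06 (adjusted p = 5.8e-04), whose second probe differed by -0.06. Cars was no longer called when replicate 1 or 2 of E11.5 (adjusted p = 0.067 and 0.11) or replicate 2 or 3 of E16.5 (0.077 and 0.075) was left out.

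Downstream, 19 genes of stress output, growth control and autophagy were measured. Of these 4 rose and 3 fell (median 0.08), beside 15.9% higher and 18.7% lower of all genes. Txnip, the thioredoxin-interacting protein gene, rose from 9.07 ± 0.37 to 11.81 ± 0.35 (SD, n = 3; adjusted p = 2.5e-07), and its second probe by a log2 difference of 2.42. Tsc22d3, the glucocorticoid-induced leucine zipper gene, rose by 1.63 ± 0.13 (SE; adjusted p = 1.9e-07) on its brightest probe, while 2 others differed by 0.04 and 0.10. Gabarapl1, an autophagy gene, rose by 0.73 ± 0.21 (adjusted p = 0.014), but was not called when replicate 2 or 3 of E16.5 was left out (adjusted p = 0.058 and 0.050). Bbc3, the PUMA gene of p53-dependent and stress-induced death, named after its values were seen, rose by 0.32 ± 0.11 (adjusted p = 0.034), with companion probes at 0.05 and 0.06. Bbc3 was not called without filter (0.054) or when replicate 1 or 3 of E11.5 (0.052 and 0.16) or replicate 1 or 2 of E16.5 (0.050 and 0.13) was left out. Ddit4l, the paralogue of Ddit4, fell by 1.20 (adjusted p = 4.1e-05), opposite in sign to the Ddit4 difference of 0.83. Tsc2 and Tsc1, genes of the complex through which REDD1 restrains mTORC1, fell by 0.51 and 0.20. Tsc1 was no longer called after removal of any 1 of 7 arrays, namely replicates 1 and 3 of E11.5 and of E16.5, replicate 1 of E12.5, replicate 2 of E14.5 and replicate 3 of E15.5 (adjusted p from 0.051 to 0.16). Nor was it called with cyclic loess (0.065), no filter on dim probes (0.053), the mean of its probes (-0.11, 0.082), array weights (0.053) or only the 2 stages fitted (0.078). The Tsc2 probes differed by -0.46 and 0.08 besides the brightest.

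Of 18 genes of the unfolded protein response of the endoplasmic reticulum 3 rose and 1 fell (median 0.02). Of all genes 15.9% were higher and 18.7% lower. Herpud1, a gene of ER-associated degradation, rose by 0.84 ± 0.15 (SE; adjusted p = 5.9e-04), the transcription factor gene Xbp1 by 0.58 ± 0.14 (adjusted p = 0.0053) and Sel1l, an ER degradation adaptor gene, by 0.43 ± 0.09 (adjusted p = 0.0013). The other Sel1l probes differed by 0.06 and by less than 0.01. Creb3l2 fell by 0.45. The chaperone genes Hspa5 (-0.00 ± 0.09), Hsp90b1 (-0.32 ± 0.19) and Calr (-0.36 ± 0.14) were not called, though Calr was with the replicate block (adjusted p = 0.039, against 0.054 without it). Calr was also called when E11.5 replicate 3 (0.014) or E13.5 replicate 1 (0.041) was left out. The Hspa5 probe exceeded the floor on only 2 of the 3 arrays of either stage.

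**Figure D5:**
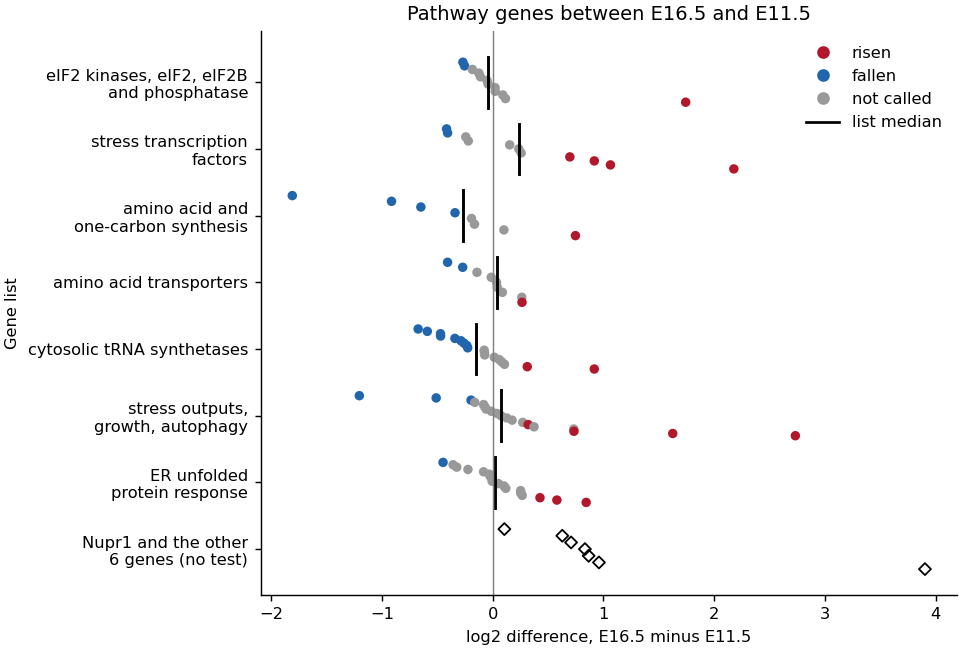
Log2 difference between E16.5 and E11.5 (horizontal axis) of the 95 measured pathway genes in 7 lists (rows), with called rises in red, called falls in blue, other genes in grey and the list median as a black bar. The bottom row gives the 7 described genes without a test. Nupr1, at 3.90, lies beyond every pathway gene, of which Txnip, at 2.73, reaches furthest up and Gpt2, at -1.81, furthest down.

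Single days moved few of these 95 genes. limma called 7 at E12.5 against E11.5 (7.37%, against 5.54% of all genes) and 9 at E13.5 against E12.5 (9.47% and 4.86%), all of the 9 lower (3.18% of all genes were). It called 6 at E14.5 (6.32% and 4.57%) and 5 at E15.5 (5.26% and 2.53%). The step to E16.5 had 0 calls (0.443% of all genes). In the same fit 6 of the 95 had an unadjusted p under 0.05, against 1001 of all 10841 genes. The fit with array weights called 6 of the 95, and no share over all genes is given for it. At E15.5, the day of the Nupr1 step, Atf5, Aldh1l2 and Txnip rose by 0.39, 0.28 and 0.89, and the tRNA synthetase genes Kars and Mars1 both fell by 0.34. These genes were named after their values were seen. These counts rest on single arrays. Leaving out 1 array gave 5 to 10 calls at E12.5, 2 to 25 at E13.5, 0 to 25 at E14.5, 0 to 18 at E15.5 and 0 at E16.5. Both counts of 25 came without E13.5 replicate 1, and the 18 without E15.5 replicate 1. Neighbouring steps share arrays, and the difference between steps was not tested.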

How the data were processed

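RNA from Wt1-GFP bright ventricle cells was labelled as biotinylated cRNA and hybridised to Illumina bead arrays, 3 for each of 6 stages, per the labels' protocols. The deposited table holds 1 linear intensity per probe and array (83.8 to 17358, median 104). The submitters' processing notes name GenomeStudio 2011.1. Sorted, no 2 columns were more than 2.04 units apart at any rank, so the values the authors deposited are equalised between arrays. A second deposited table, with 36 columns of per-sample values whose running numbers match no label, was not used.

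The deposited intensities were taken to log2. The background peak lay at 99.2 units (log2 SD 0.0597), and the floor of 109 units is passed by 0.01 of such a distribution. Probes above it on 3 or more arrays were kept (20027 of 45281). Of all probes 34885 have 1 gene symbol, 18 several and 10378 none. A gene is represented by its brightest kept probe. limma 3.58.1 in R 4.3.3 fitted 1 mean per stage to 18 arrays (12 residual degrees of freedom), with Benjamini-Hochberg adjustment over 10841 genes, and was tested on simulated data. The number of arrays limits the precision. The authors' genome build is not given in the sources used here, and promoter sequences are from RefSeq.

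The 7 genes and all lists were chosen with earlier results of these data known. Named are all 7 genes, up to 3 called genes per list and direction with the largest differences, the 8 genes most like Nupr1, and, chosen after their values were seen, Atf5, Bbc3, Cebpg, Jund, Eif2ak1, Eif2ak2, Slc7a11, Hspa5, Hsp90b1, Calr, Kars and Mars1, besides marker genes at the floor. Same-numbered arrays of E11.5 and E16.5 deviated together (correlations 0.25, 0.29 and 0.21). Other pairs of stages were mixed, with 0.73, 0.43 and 0.36 for E15.5 and E16.5 but 0.01, 0.21 and -0.25 for E12.5 and E13.5. These numbers come from the sample titles. They were treated as pairs in a fit with the replicate number as a block, although the labels do not state a pairing. Alternatives changed the background step, normalization, dim-probe filter, probe rule, array weights, replicate block, stages fitted and arrays included. Some genes and markers are not reported here.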

Additional observations from a re-analysis of the deposited data

How the results depend on the processing

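For E16.5 against E11.5, all 28 alternatives kept the direction of the Nupr1 difference (3.90), which was 5.42 and 4.50 with normexp at offsets 16 and 50 and 3.70 to 4.17 with 1 array left out. Many of the 28 could not change this value. Leaving out an array of E12.5 to E15.5, the replicate block, the fit of 2 stages and the probe filters leave both stage means as they are. So does the mean of kept probes, since Nupr1 has 1 probe. With 1 array left out, 12 to 18 pathway genes rose (main 16) and 19 to 24 fell (main 23), and over all genes 1485 to 1900 were higher and 1634 to 2430 lower. Cyclic loess gave 15 falls. With the replicate block 19 pathway genes rose and 24 fell, among them 16 and 23 of the main calls, and of the genes named the block changed the Jund and Calr calls. Calls per step depended on the fit. Array weights gave 23, 33, 40, 36 and 6 in stage order, and fitting only the 2 stages gave 16, 0, 1 and 0 for the first 4. At E14.5 the mean of kept probes gave 3, and leaving aside replicate 1 of E15.5 and of E16.5, with raised cardiomyocyte markers, gave 10. At E15.5 normexp at offset 16 gave 2, no filter 3, and leaving those arrays aside 21. The E14.5 arrays, with cardiomyocyte means of 10.30 to 10.49, were kept in that fit. Its step to E15.5 thus sets arrays at 8.70 and 8.99 against them, and does not remove the difference in cardiomyocyte markers. With 1 array left out the steps gave 5 to 10, 2 to 25, 0 to 25, 0 to 18, and 0 calls. Leaving out arrays of E12.5 to E15.5, and applying the alternatives to the steps, was chosen after seeing the data. For the 42 tested pathway genes named, 1122 of 1175 values stayed on their side of the threshold, 43 lost and 10 gained a call, and 9 had the other sign, all uncalled values of Eif2ak1, Hspa5 and Slc7a11. For the 6 described genes besides Nupr1, which have no test, 163 of 168 values moved by less than the spread between arrays, 5 by more, and 0 changed sign. Many of these 168 values could not move either, since most of the same alternatives leave the stage means as they are. Chac1, Trib3 and the E11.5 values of Nupr1 lie near the floor, where differences are understated.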

Other observations

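E13.5 replicate 1 stood apart from the other arrays of its stage. Its limma array weight, estimated from all genes, was 0.158, the lowest of the 18. It had the lowest Ddit3 value of the course (7.55), the highest Asns value (9.47), and the lowest mean of immediate early genes at E13.5 (8.81). The Atf4 probes disagreed on it: the brighter one read 10.85, the highest of its stage, and the second 7.38, the lowest.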
